A study of Mus musculus with 19 samples.

Results

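The cytosolic ribosomal protein genes encode the proteins of the ribosome that works in the cytoplasm, as opposed to the separate ribosome of mitochondria. They were taken as every listed gene whose symbol is Rps or Rpl with a number, with or without a closing letter, together with Rplp0, Rplp1, Rplp2 and Rpsa. This gave 82 of the 16842 gene symbols listed in any library, 32 of the small subunit and 50 of the large subunit. RNA was sequenced from freshly isolated bone-marrow cells of mice that were wild type (WT) or mutant (MT). The series concerns mutant ASXL1, a chromatin regulator often altered in clonal blood formation and myeloid leukemia, but the sample labels give neither the allele nor its promoter, nor sex, batch or the number of animals. Myeloid cells positive for CD11b came from mice of 4 months (young, 3 MT and 4 WT libraries) and of 18 months (old, 3 MT and 3 WT). LK cells, the marrow progenitors and stem cells that lack lineage markers and carry the receptor c-Kit, came from mice of 18 months (3 MT and 3 WT), which gives 6 groups and 19 libraries. The labels do not say that replicates of a group are separate animals, so p-values measure the spread between these libraries only.

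A ribosome carries 1 copy of nearly every ribosomal protein, so the genes for them are transcribed at high and similar rates in growing cells. Their mRNAs open with a C followed by a run of pyrimidines, the 5′ terminal oligopyrimidine (TOP) motif, through which mTOR signalling and the RNA-binding protein LARP1 set how well they are translated. In blood formation they are known from inherited Diamond-Blackfan anaemia, in which 1 copy of a ribosomal protein gene such as RPS19 is lost and red cell precursors fail, and from the 5q- myelodysplastic syndrome, in which RPS14 is the gene concerned. RPL5 and RPL11 also act outside the ribosome: with 5S ribosomal RNA they bind MDM2 and so stabilise p53 when ribosome assembly fails.

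The start sites of 6 members are shown because these genes are known for the pyrimidine run described above. Near the annotated starts used here such a run was found in part of the members only, as given below. Shown are 4 of the 5 members with the largest fold changes between MT and WT LK cells (Rpl31, Rplp2, Rpl35a and Rpl10), with Rpl5 and Rpl11. Each line gives 60 bases before and 30 bases from the annotated start on, 5′ to 3′ on the gene's strand, from the RefSeq table for GRCm38.p6, and capitals mark the longest run that opens with C and holds only C or T.
Rpl31: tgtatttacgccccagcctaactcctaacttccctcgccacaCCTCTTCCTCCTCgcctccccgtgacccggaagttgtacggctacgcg
Rplp2: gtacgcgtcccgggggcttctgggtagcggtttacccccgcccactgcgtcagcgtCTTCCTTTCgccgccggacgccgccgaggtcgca
Rpl35a: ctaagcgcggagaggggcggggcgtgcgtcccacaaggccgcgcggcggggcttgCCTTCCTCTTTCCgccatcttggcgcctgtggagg
Rpl10: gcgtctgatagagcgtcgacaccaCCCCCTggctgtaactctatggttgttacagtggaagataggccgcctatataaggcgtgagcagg
Rpl5: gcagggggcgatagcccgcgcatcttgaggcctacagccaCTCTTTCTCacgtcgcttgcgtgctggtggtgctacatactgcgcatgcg
Rpl11: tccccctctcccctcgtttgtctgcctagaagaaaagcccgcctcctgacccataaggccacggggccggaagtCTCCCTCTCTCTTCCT

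These windows lie at chr1:39367791-39367880 (Rpl31, plus strand), chr7:141447591-141447680 (Rplp2, plus), chr16:33056422-33056511 (Rpl35a, plus, 1 of 3 annotated starts, chosen for its run), chrX:74270756-74270845 (Rpl10, plus), chr5:107900468-107900557 (Rpl5, plus) and chr4:136053364-136053453 (Rpl11, minus). The marked run covered or bordered the annotated start in Rplp2, where it began 4 bases before it, and in Rpl35a, where it began 5 bases before it. The marked run began 18 and 20 bases upstream in Rpl31 and Rpl5 and 15 bases downstream in Rpl11. Only a run of 6 bases, 36 bases upstream, was found in Rpl10. In Rpl31 a shorter run that opens with C, cctcccc, covered the annotated start. Of the 82 members, 62 matched a RefSeq start. A pyrimidine run of at least 6 bases that opens with C began within 10 bases of a start in 34 of these 62 members (54.8%) and in 21.8% of 26963 other genes with a window. It began exactly at the start in 11 members (17.7%) and in 2.01% of the other genes. In the whole window of 300 bases, CCGGAAG, the core bound by ETS factors, was found on either strand in 26 members (41.9%) and in 9.85% of other genes, GGGCGG in 38 members (61.3%) and in 38.1%, and TATAAA in 7 members (11.3%) and in 15.7%. These are matches of letters, and no binding was measured.

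The members are spread over 19 chromosomes, with 14 on chromosome 7 and 4 on the X chromosome. Their transcripts are short: the median length was 705 bases, against 2572 bases over all genes with a length, from 271 bases (Rps28) to 3706 bases for the transcript model of Rps20, which is longer than that of any other member.

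Gene counts per library were 26251822 to 38347903 in the young set, 41909460 to 68260809 in the old set and 31853263 to 59882448 in the LK set. Levels below are CPM, counts scaled to a common library size, within each of these 3 sets. Itgam, which encodes CD11b, was at 1470 to 2820 CPM in the Cd11b libraries and at 57.1 to 103 CPM in the LK libraries. Kit, the receptor that defines LK cells, was at 206 to 275 CPM in LK and at 50.3 to 115 CPM in Cd11b libraries. Asxl1 was lower in MT than in WT LK cells, at 116 ± 4.63 against 141 ± 9.95 CPM (SD, n = 3 each, edgeR adjusted p = 0.0119), and did not pass the test in old (adjusted p = 0.939) or young Cd11b cells (adjusted p = 0.999). Over all genes tested 15.9% were lower in MT LK cells, and the trend of fold change with transcript length, described below, was not removed here. The labels do not say whether the mutation changes the level of the transcript, so these levels do not check the genotype labels. In bulk RNA, fewer cells of a type and less RNA per cell cannot be told apart.

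The share of all gene counts that fell in the 82 members separated the LK libraries from the others. In LK cells it was 10.66, 9.387 and 9.37% in the 3 WT libraries and 11.48, 11.42 and 11.49% in the 3 MT libraries. All 3 MT libraries stood above all WT libraries, the MT libraries lay close together, and WT replicate 1 stood apart from the other WT libraries in the direction of the MT group. In Cd11b cells the share was 1.79% ± 0.0958 in old WT and 1.77% ± 0.0968 in old MT libraries (SD, n = 3 each), and 1.58% ± 0.154 in young WT (n = 4) and 1.66% ± 0.163 in young MT libraries (n = 3). Genotypes overlapped at both ages, and young WT replicate 4 (1.353%) and young MT replicate 3 (1.475%) were the lowest of all.

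**Figure D1:**
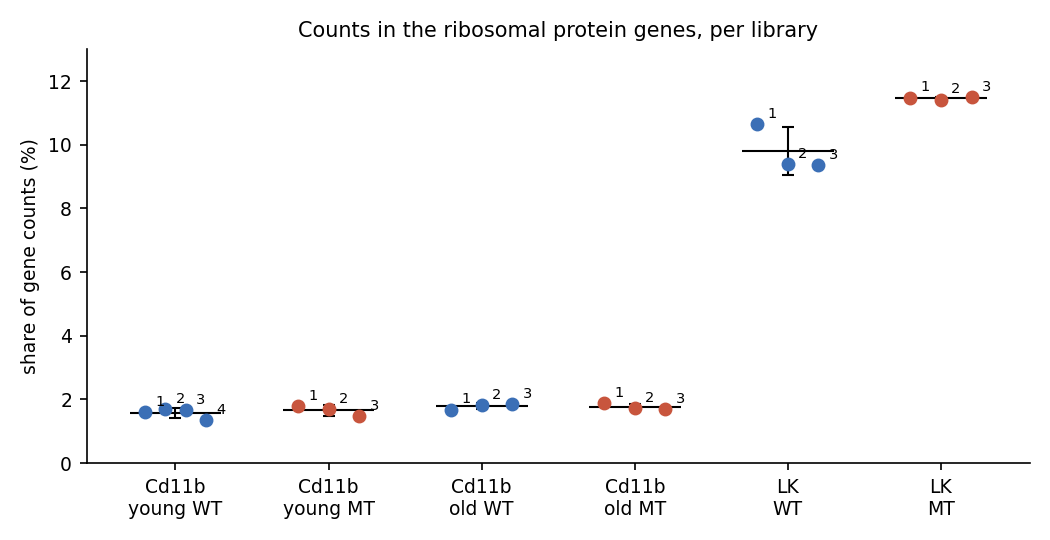
Share of all gene counts (%, vertical axis) in the 82 ribosomal protein genes, one point per library with its replicate number, WT blue and MT red. Bars give the group mean and its SD; the LK libraries lie between 9.37 and 11.49% and the Cd11b libraries between 1.353 and 1.874%.

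In LK cells 70 of the 82 members were higher in MT than in WT and none was lower (edgeR quasi-likelihood test, Benjamini-Hochberg adjusted p under 0.05 over all 14113 genes tested). Over all genes tested, 13.9% rose and 15.9% fell. The median log2 fold change of the members was 0.26, a fold of 1.20, against 0.02 over all genes, and 81 of the 82 were above 0. In 74 members every MT library exceeded every WT library in CPM, which held for 22.6% of all genes. The rise was small per gene and shared: the highest was 0.47, for Rpl31. The count depended on single libraries: dropping MT replicate 2 left 5 members called, dropping WT replicate 2 left 9, and dropping replicate 3 of either genotype left 14. With WT replicate 1, the library that stood apart, dropped, 78 were called and the median was 0.32.

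Among the small subunit proteins 31 of 32 rose, all but Rps2 (0.17 ± 0.06, SE), with a median of 0.29. Rps14, the gene of the 5q- syndrome, was at 1275, 1082 and 1105 CPM in the WT libraries and at 1481, 1497 and 1609 CPM in the MT libraries. The 2 genotypes did not overlap, and the log2 fold change was 0.41 ± 0.07 (edgeR adjusted p = 0.00786). Rps27a, which encodes a fusion of ubiquitin with a small subunit protein, was at 988, 838 and 802 CPM in WT and at 1143, 1182 and 1108 CPM in MT libraries (log2 fold change 0.39 ± 0.08, adjusted p = 0.0109). Rpsa, the laminin receptor and a protein of the small subunit, was at 3209, 2736 and 2835 CPM in WT and at 3462, 3623 and 3763 CPM in MT libraries, a log2 fold change of 0.31 ± 0.07. Rps19, the most often mutated gene of Diamond-Blackfan anaemia, was at 1037 ± 85.5 CPM in WT and 1228 ± 9.42 CPM in MT (0.24 ± 0.06), and Rps6, the target of the S6 kinases, at 1086 ± 67.8 and 1243 ± 35.4 CPM (0.19 ± 0.05). Neither passed once the trend of fold change with transcript length, described below, was removed, and Rps6 was then at -0.00097. Rps28, the shortest member, rose by 0.32 ± 0.07 and Rps20, the one with the longest transcript model, by 0.27 ± 0.06.

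Among the large subunit proteins 39 of 50 rose, with a median of 0.25. Rpl31 was at 1006, 729 and 705 CPM in the WT libraries and at 1075, 1163 and 1138 CPM in the MT libraries, a log2 fold change of 0.47 ± 0.13 (edgeR adjusted p = 0.0309). The high WT value was again that of replicate 1, and it came close to the lowest MT library without reaching it. Rpl35a, another gene of Diamond-Blackfan anaemia, was at 625.5, 511.4 and 498.4 CPM in WT and at 691.7, 736.5 and 755.5 CPM in MT libraries (0.42 ± 0.09, adjusted p = 0.0124). Rpl10, on the X chromosome, was at 1142, 1042 and 1353 CPM in WT and at 1495, 1570 and 1605 CPM in MT libraries (0.40 ± 0.09, adjusted p = 0.0151). Here it was WT replicate 3 and not replicate 1 that came nearest to the MT group. Rpl22, which also binds RNA outside the ribosome, was at 603 ± 50.3 CPM in WT and 708 ± 9.70 CPM in MT (0.23 ± 0.06, adjusted p = 0.0223), and its value was -0.0046 once the trend with transcript length, described below, was removed.

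Of the 3 stalk proteins, which recruit the elongation factors, 2 rose. Rplp2 was at 1256, 1026 and 1022 CPM in WT and at 1460, 1508 and 1485 CPM in MT libraries (0.43 ± 0.08, edgeR adjusted p = 0.00920), and Rplp1 at 2358, 2013 and 2011 CPM in WT and at 2672, 2800 and 2750 CPM in MT libraries (0.37 ± 0.07, adjusted p = 0.00903). Both rose with no overlap between genotypes. Rplp0, the protein that holds them on the large subunit and the longest transcript of the 3, was at 3311 ± 188 CPM in WT and 3703 ± 110 CPM in MT, with a log2 fold change of 0.16 ± 0.05 that did not pass the test (adjusted p = 0.0531). Whether Rplp0 differed from Rplp1 and Rplp2 was not tested.

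**Figure D2:**
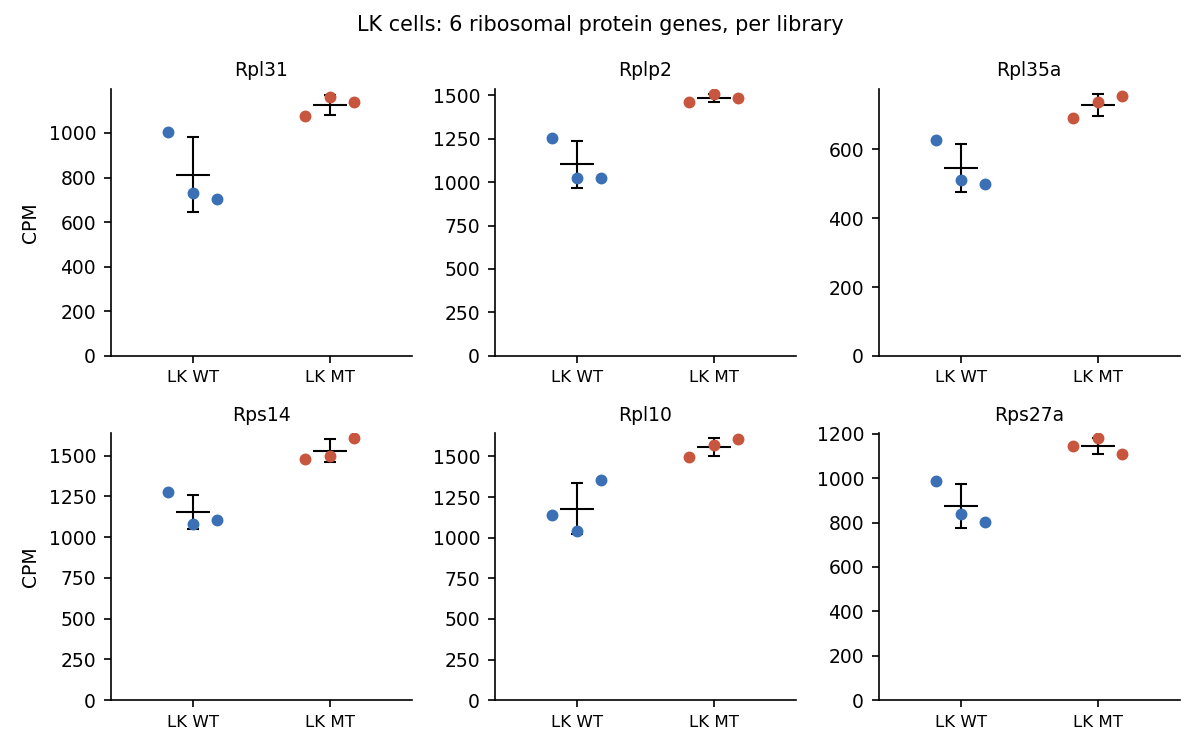
CPM (vertical axis, from 0) of 6 ribosomal protein genes in each LK library, WT blue and MT red, with group mean and SD (n = 3). In all 6 genes the MT libraries lie above the WT libraries, and in 5 of them the highest WT library is replicate 1.

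The pair that carries 5S ribosomal RNA gave 1 call. Rpl11 rose, from 1064 ± 78.3 to 1220 ± 28.5 CPM (0.20 ± 0.06, edgeR adjusted p = 0.0329), and was at -0.0031 with the trend of fold change with transcript length, described below, removed. Rpl5 was at 1592, 1429 and 1143 CPM in WT and at 1687, 1446 and 1643 CPM in MT libraries, so the genotypes overlapped, and its log2 fold change of 0.20 ± 0.12 did not pass the test (adjusted p = 0.241). The 21 members linked to Diamond-Blackfan anaemia or the 5q- syndrome included 19 that rose, all but Rpl5 and Rpl15, with a median of 0.29. This is near the 70 of all 82 members that rose, at a median of 0.26, where 13.9% of all genes rose. With the length trend removed 3 of the 21 were higher and 1 was lower. Of the 5 members that are paralogs of another member, Rpl22l1 (0.28 ± 0.08) and Rps27l (0.24 ± 0.05) rose, and Rpl7l1 did not pass the test (0.17 ± 0.07, adjusted p = 0.0831). Rpl39l, a form known from testis, and Rpl3l, one known from muscle, were nearly absent, at no more than 0.586 CPM in any LK library, and neither passed the test (adjusted p = 0.856 and 0.622). Rpl39l was at 0 in 2 of the 3 WT libraries. The other members that did not pass were Rpl3, Rpl4, Rpl7a, Rpl29 and Rpl39, at log2 fold changes of 0.07 to 0.25.

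Fold changes in LK cells went with transcript length over the whole transcriptome, and the members are short. Across 13648 genes that are not members, Spearman's rho between log2 fold change and transcript length was -0.462, and across the 82 members it was -0.527 (across genes, which share the same 6 libraries and are not replicates). In old and young Cd11b cells the same rho over genes that are not members was 0.192 and 0.0615. Of the 82 members, 60 fell among the lengths of the shortest length class of the other genes, which were split by length into 10 classes of like size, at up to 965 bases. In that class 35.1% of the other 1366 genes were called higher, at a median of 0.23 on the log2 scale, and 55 of the 60 members (91.7%), at a median of 0.28. Of the other genes of that class at 100 CPM or more, 172 in all, 73.8% were called higher, with a median of 0.26. In the next class, of 966 to 1440 bases, 16 members had a median of 0.23 and the other genes one of 0.16, and in the longest class the other genes had a median of -0.25.

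The trend was visible library by library. On the log2 scale the median deviation of the members from their mean over the LK set was 0.01 in WT replicate 1, -0.20 and -0.21 in WT replicates 2 and 3, and 0.12, 0.15 and 0.15 in MT replicates 1 to 3. The other genes of the shortest class deviated by -0.02, -0.14 and -0.15 in the WT libraries and by 0.07, 0.12 and 0.10 in the MT libraries, and those of the longest class by 0.00, 0.18, 0.18, -0.08, -0.15 and -0.15 in the same order. Members and other short genes thus had the same sign in 5 of the 6 libraries, and WT replicate 1 was near 0 in all 3 groups of genes. The labels give no RNA quality or fragment size, and the part of these in the result was not tested.

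**Figure D3:**
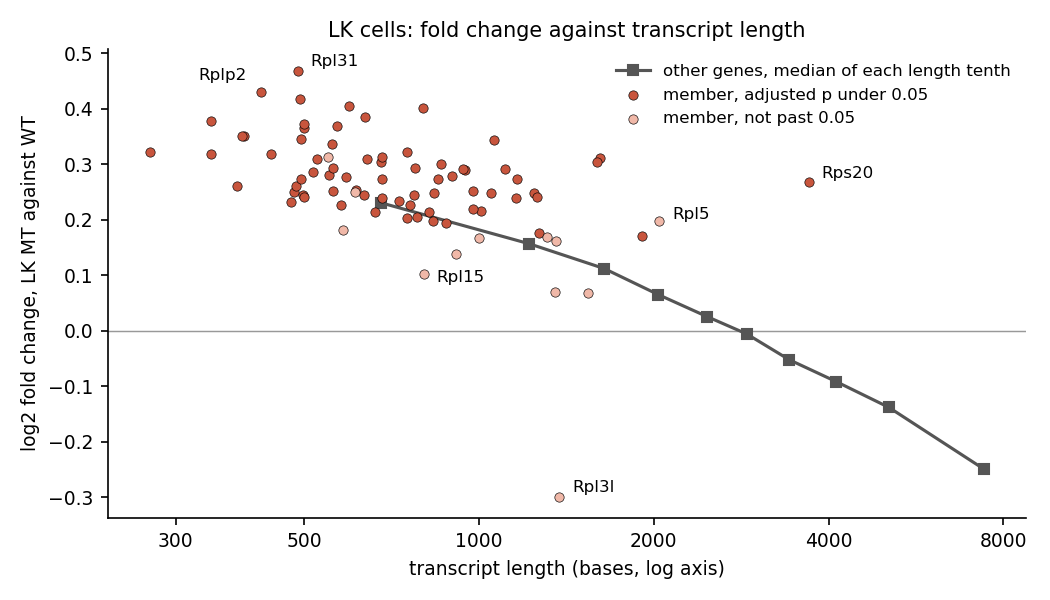
Log2 fold change of MT against WT in LK cells (vertical axis) against transcript length in bases (log axis). Red points are members with an adjusted p under 0.05, pale points the other members, and squares the median of the other genes in each of 10 length classes, placed at its median length; the squares fall from 0.23 to -0.25 and most members lie at or above the line.

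When the length trend of the genes that are not members was removed from each library before the fit, 12 members remained higher and 1 lower (edgeR, adjusted p under 0.05), against a background of 5.87% of genes higher and 11.4% lower. The median of the members was then 0.07, against -0.01 over all genes, and 68 of 82 were above 0. The 12, all of them also called without the step, were Rpl23, Rpl35a, Rplp1, Rplp2, Rps12, Rps14, Rps15, Rps16, Rps20, Rps23, Rps27a and Rpsa, named here because of this result. Rps14 kept 0.18 ± 0.04, Rplp2 0.19 ± 0.04, Rpl35a 0.18 ± 0.05 and Rpsa 0.19 ± 0.05. Rpl31, the member with the largest change before, was at 0.24 ± 0.09 and did not pass. Rpl15, which binds ribosomal RNA in the large subunit, was called lower at -0.10 ± 0.03 (adjusted p = 0.0397), although its levels without the step were 630 ± 30.9 CPM in WT and 677 ± 14.5 CPM in MT. For Rps20 the value of 0.31 ± 0.06 rests on its transcript model of 3706 bases: with the trend taken over coding length in place of transcript length it was not called. The models of Rps16 (1109 bases), Rpl23 (1059) and Rps23 (937) are also long beside their coding lengths of 438, 420 and 429 bases. Fewer members were called with coding length, as given below, so the list depends on the length used. Of the small subunit proteins 8 of 32 remained higher, and of the large subunit proteins 4 of 50.

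Marker genes of single lineages also differed between the LK groups. The summed level of 8 neutrophil markers was 12500 to 14000 CPM in WT and 14500 to 19700 CPM in MT libraries. Most of this sum came from Mpo and Elane, granule genes that progenitors also express, at 9606 ± 303 and 2673 ± 276 CPM in WT and at 11290 ± 984 and 3743 ± 496 CPM in MT cells. Of the 7 markers tested, Elane rose by 0.49 ± 0.11, Mpo by 0.23 ± 0.07 and S100a8, a gene of maturing neutrophils, by 1.75 ± 0.45. Of the 7, 0 passed the test with the length trend removed, and all were still above 0. The 4 monocyte or macrophage markers listed summed to 832 to 952 CPM in WT and 1020 to 1150 CPM in MT libraries, with Ly6c2 higher (0.48 ± 0.08) and Ccr2 (-0.35 ± 0.05) and Csf1r (-0.24 ± 0.05) lower. The 6 T and NK markers summed to 193 to 230 CPM in WT and 236 to 297 CPM in MT libraries. The 6 erythroid markers listed overlapped (681 to 754 and 647 to 736 CPM), and no marker of these lists that the LK set holds was at 0 in every library. The part of these lineages in the change of the ribosomal protein genes was not tested.

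Among genes that build ribosomes, calls went in both directions. Of 44 tested genes of ribosome biogenesis 5 rose and 14 fell in MT LK cells, against a background of 13.9% of genes higher and 15.9% lower. Among those that fell were Utp20 (-0.50 ± 0.06) and Heatr1 (-0.37 ± 0.05) of the small subunit processome, Ddx21, an RNA helicase of the nucleolus (-0.28 ± 0.04), and Rrp12 (-0.24 ± 0.04). With the length trend removed, 0 rose and 10 fell, against a background of 5.87% of genes higher and 11.4% lower, and Utp20 was at -0.25 ± 0.03. Of 11 genes of RNA polymerase I, which transcribes ribosomal RNA, the 2 largest subunits Polr1a (-0.34 ± 0.04) and Polr1b (-0.26 ± 0.04) fell and Polr1d rose (0.20 ± 0.05). For these 11 genes of RNA polymerase I the shares lie near the background of 13.9% higher and 15.9% lower. With the length trend removed Polr1b was the 1 gene of the list still lower (-0.20 ± 0.04) and 0 were higher, with Polr1a at -0.09 ± 0.05 and Polr1d at 0.04 ± 0.04. Of 33 factors of initiation and elongation 9 rose and 5 fell, and with the length trend removed 3 were higher and 6 lower. Eif5b, which joins the subunits, rose by 0.37 ± 0.06 and Eif2s2 by 0.26 ± 0.04, and Eif4g1, the scaffold of the cap-binding complex, fell by 0.35 on the log2 scale, as did Eif2s3x by 0.32.

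Genes of translation control and of stalled ribosomes were called in both directions, beside the background of 13.9% higher and 15.9% lower. With the length trend removed the background was 5.87% higher and 11.4% lower. Of 20 regulators 2 rose and 9 fell, and with the length trend removed 2 were higher and 6 lower. Mdm4, the partner of MDM2 in restraining p53, fell from 85.8 ± 14.3 to 46.8 ± 1.67 CPM (-0.87 ± 0.11), Eif4ebp2, a brake on cap-dependent translation, changed by -0.59 ± 0.09 and Eif2ak2, the kinase PKR, by -0.38 ± 0.07, and Zfp622, a factor of large subunit maturation, rose by 0.26 ± 0.05. Of 10 genes that handle stalled ribosomes, Pelo rose and 5 fell, among them Ltn1 (-0.43 ± 0.07), Abce1 (-0.21 ± 0.04), Ascc3 (-0.42 ± 0.09) and Zfp598 (-0.17 ± 0.05). Of these 10, 1 was higher and 3 were lower with the length trend removed, and the lowest log2 fold change among them was then -0.20. Of 12 other genes with TOP mRNAs 5 rose, among them Snhg8 (0.45 ± 0.07), Fau, which encodes a fusion with a ribosomal protein of the small subunit (0.39 ± 0.08), and Tpt1 (0.25 ± 0.06), and 0 fell. Of these 12, 1 was higher and 3 were lower with the length trend removed, and the highest log2 fold change among them was then 0.22. Of 76 mitochondrial ribosomal proteins 41 rose and 0 fell, with a median of 0.17. Mrpl14 (0.34 ± 0.05), Mrpl24 (0.29 ± 0.05), Mrpl41 (0.27 ± 0.05) and Mrpl28 (0.24 ± 0.04) had the smallest p. With the length trend removed 12 of the 76 were higher and 0 lower.

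In old Cd11b cells 1 of 81 tested members was lower in MT than in WT and 0 were higher, against a background of 0.209% of 13398 genes lower and 0.127% higher. The median log2 fold change was -0.03, and 18 members were above 0. The member called was Rpl35, a protein at the exit of the large subunit's tunnel. It was at 91.5, 109 and 109 CPM in the WT libraries and at 71.1, 65.4 and 60.8 CPM in the MT libraries. The groups did not overlap, and the log2 fold change was -0.65 ± 0.08 (edgeR adjusted p = 0.0279). An unadjusted p under 0.05 by edgeR was found in 2 of the 81 members and in 2230 of all 13398 genes. Beside Rpl35 this was Rps27a, at 315, 264 and 254 CPM in WT and 229.5, 241.3 and 218.2 CPM in MT libraries (-0.27 ± 0.08, adjusted p = 0.174). Leaving out WT replicate 1, which had the lowest share of counts in the members among the old WT libraries, gave 14 members lower, and leaving out any of MT replicates 2 and 3 or WT replicates 2 and 3 gave 0. Without replicate 1 of both groups, an alternative chosen after seeing the data, 47 were lower and the median was -0.13. Snhg5 (0.48 ± 0.06) and Snhg1 (0.50 ± 0.06), host genes of small nucleolar RNAs with TOP motifs, were higher in old MT cells. No other gene of the lists for mitochondrial ribosomal proteins, translation factors, ribosome biogenesis, RNA polymerase I, regulators and rescue, or of the other TOP mRNAs, was called by edgeR in this comparison.

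In young Cd11b cells no member differed between MT and WT: 0 of 81 tested members and 0 of all 13755 genes were called (0%), and 0 members had an unadjusted p under 0.05 by edgeR, which 444 of all genes had. DESeq2 and voom with sample weights also called 0 members. The median log2 fold change of the members was 0.03 with values from -0.20 (Rpl22l1) to 0.16 (Rpl23).

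**Figure D4:**
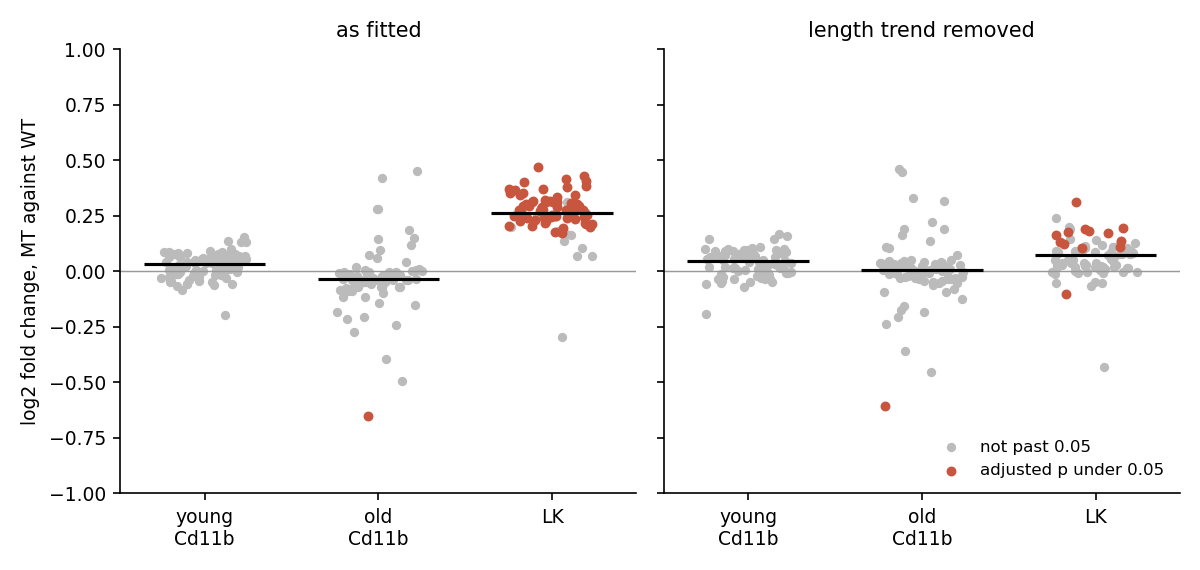
Log2 fold change of each member, MT against WT (vertical axis), in young Cd11b, old Cd11b and LK cells, as fitted (left) and with the length trend removed (right). Red points have an adjusted p under 0.05 and lines are medians, which are 0.03, -0.03 and 0.26 on the left and 0.05, 0.01 and 0.07 on the right.

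The difference between the genotype effects in LK and in old Cd11b cells was tested as an interaction. It was above 0 in 78 of 82 members and passed the test in 25, all with a larger change in LK cells, where 8.79% of all genes passed in that direction and 12% in the other. The median interaction was 0.29. Among the members that passed, Rpl35 had the largest, at 0.93 ± 0.11 (edgeR adjusted p = 0.00309), composed of 0.29 in LK cells and -0.65 in old Cd11b cells. It was followed by Rps27a (0.65 ± 0.13), Rpl31 (0.54 ± 0.17), Rplp2 (0.47 ± 0.13) and Rpl23 (0.43 ± 0.12). With the length trend removed 2 members passed, Rpl35 and Rps20, against a background of 4.92% of genes in that direction and 5.81% in the other. The offset of Rps20 was taken from its transcript model of 3706 bases, which has a coding length of 357 bases. Single libraries set the number. Among LK libraries, it fell to 3 with WT replicate 2 dropped, to 4 with MT replicate 3, to 5 with WT replicate 3 and to 6 with MT replicate 2. It was 7 with old Cd11b WT replicate 3 dropped, and 8 with WT replicate 2, MT replicate 2 or MT replicate 3 of that set. With WT replicate 1 dropped it was 52 for the LK library and 49 for the old Cd11b library.

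Replicates of old Cd11b cells and of young WT cells differed widely in single members. In old MT libraries the highest of the 3 was at least 1.5 times the lowest in 10 of 81 members (12.3%) and in 0.25% of 3607 other genes at 50 CPM or more. In old WT libraries this held for 9 of 81 members (11.1%) and 0.586% of other genes, and in young WT libraries for 15 of 81 (18.5%) and 3.77%. In young MT libraries it held for 2 of 81 members (2.47%), near the 1.8% of other genes. In LK libraries it was 1 member of 82 in WT and 2 in MT, and these were Rpl3l and Rpl39l, which are close to 0 (no ratio was formed for Rpl39l in WT, with libraries at 0). The genes named next were chosen for this spread.

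Rpl5 was at 166.5, 48.9 and 87.7 CPM in the old WT libraries and at 75.1, 203 and 138 CPM in the old MT libraries. Its level varied 3.40 times within WT and 2.70 times within MT, with no order by genotype. Rpl23a was at 110, 124 and 180.5 CPM in old WT and at 176, 171 and 42.0 CPM in old MT libraries, so a single MT library was low. In that same library, MT replicate 3, Rpl15 was at 51.3 CPM, against 114 and 104 CPM in MT replicates 1 and 2, and Rps12 at 159 CPM against 317 and 307 CPM. Rpl28 was at 284 CPM in MT replicate 1 and at 130 and 170 CPM in the others, and Rpl37a at 162, 208 and 86.8 CPM in old WT libraries. The low library thus differed from gene to gene. Over all members the median ratio of highest to lowest was 1.11 in old MT and 1.22 in old WT libraries, against 1.06 and 1.09 over the other genes. Ribosomal protein genes have many processed copies in the genome, and how reads that match several places were counted is not given in the sources used here. Its part in this spread was not tested.

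**Figure D5:**
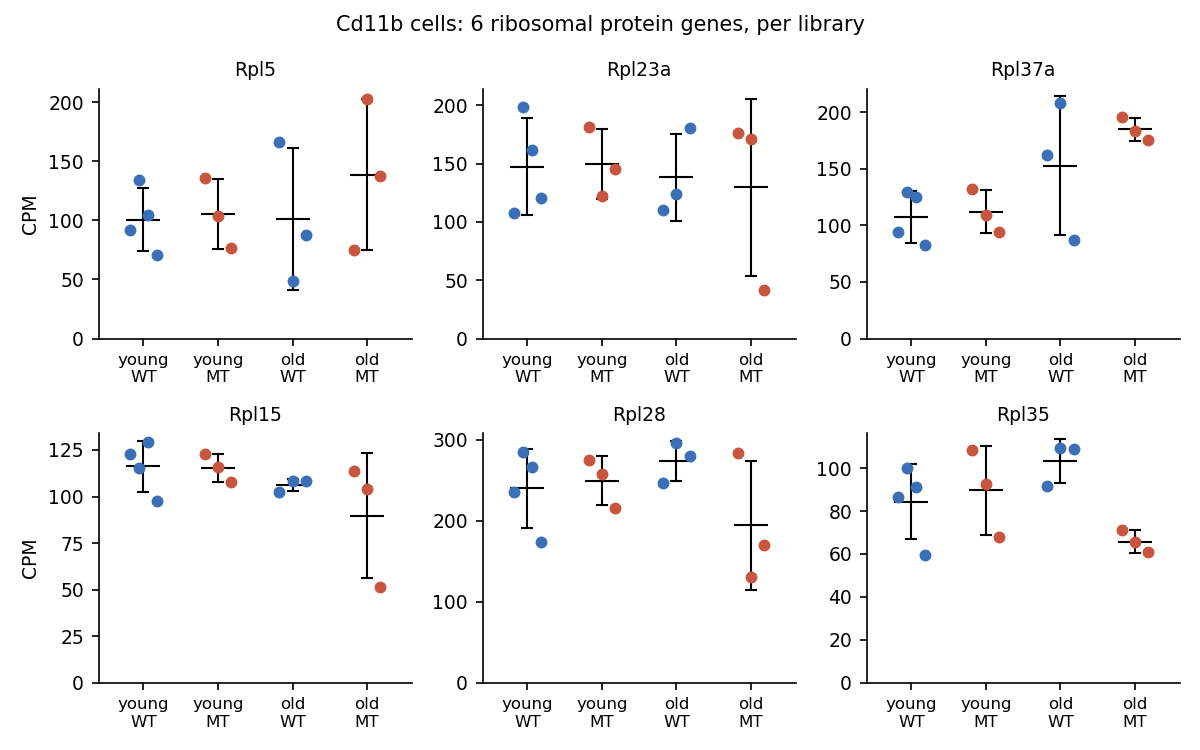
CPM (vertical axis, from 0) of 6 members in each Cd11b library, by age and genotype, WT blue and MT red, with group mean and SD. Rpl5 spans 48.9 to 203 CPM among the old libraries and the low library differs between genes, whereas the old MT libraries of Rpl35 lie together below old WT.

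Levels between genes were compared per kilobase of transcript. The median member was at 1513 CPM per kilobase in LK WT, 1804 in LK MT, 284 in old WT, 273 in old MT, 245 in young WT and 254 in young MT cells. The genes at the top differed between the 3 sets: Rps12, Rplp1 and Rpl41 led in LK WT cells, Rps9, Rps29 and Rps12 in old WT and Rplp1, Rps9 and Rplp2 in young WT Cd11b cells. Rps9, at 988 CPM per kilobase in old WT, exceeded 3 times the median in both old Cd11b groups, as Rps12 and Rplp1 did in LK MT cells. The paralogs Rps27l, Rpl22l1, Rpl7l1, Rpl3l and Rpl39l were below the median divided by 3 in all 6 groups, as was Rps20, whose level per kilobase is divided by the long model. Rpl5 was also below it in each of the 4 Cd11b groups, but not in LK cells.

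In WT cells at 18 months 79 of 81 tested members were higher in LK than in Cd11b cells and 1 was lower, against a background of 45.1% of genes higher and 41.7% lower. Their median log2 fold change was 1.76, a fold of 3.39, against 0.08 over all genes. Scaling by library totals alone raises the median of all genes to 0.81 and that of the members to 2.49, with 80 higher and 1 lower. Rpl5 had the largest, at 3.07 ± 0.49 (edgeR adjusted p = 0.00147), followed by Rpl10a (2.91 ± 0.13), Rpl12 (2.74 ± 0.09), Rps2 (2.59 ± 0.07) and Rpl14 (2.55 ± 0.08). Rplp1 (2.38 ± 0.09), Rpl22 (2.13 ± 0.09), Rps6 (1.93 ± 0.11), Rps19 (1.82 ± 0.08), Rplp0 (1.79 ± 0.06), Rpsa (1.78 ± 0.07), Rpl11 (1.76 ± 0.14), Rplp2 (1.64 ± 0.12), Rps14 (1.25 ± 0.07) and Rps27a (0.95 ± 0.11) were higher as well. Of the paralogs, Rpl22l1 (1.95 ± 0.11), Rps27l (1.92 ± 0.10) and Rpl7l1 (0.69 ± 0.06) were higher. Rpl3l was lower, at -3.32 ± 0.27, with 0.185 to 0.335 CPM in the LK and 1.29 to 1.62 CPM in the old Cd11b libraries. Cell type and any other difference between the LK and the old Cd11b set of libraries cannot be told apart.

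In WT Cd11b cells 52 of 82 members were higher at 18 than at 4 months and 4 were lower, against a background of 36.1% of genes higher and 36.9% lower. Their median was 0.51, against -0.02 over all genes. The split depended on the scaling: with library totals alone 39 were higher and 11 lower, with a median of 0.25 for the members and of -0.28 for all genes. The largest were Rpl27 (1.43 ± 0.10), Rpl29 (1.38 ± 0.14), Rpl21 (1.32 ± 0.14), Rpl3l (1.21 ± 0.21) and Rpl31 (1.18 ± 0.13). Scaled within each set, Rpl27 was at 40.7, 41.9, 43.7 and 33.5 CPM in the young WT libraries and at 79.8, 95.9 and 92.7 CPM in the old ones, and it did not overlap between ages with all libraries scaled together either. The members called lower were Rps27 (-0.58 ± 0.10), Rpl10a (-0.45 ± 0.16), Rps2 (-0.23 ± 0.09) and Rpl4 (-0.23 ± 0.08), and of these Rps27 was the one whose libraries did not overlap between ages when all were scaled together. Rps27 was at 0.069 with the length trend removed, and the other calls depended on single libraries. Rps2 and Rpl4 lost the call without any one of old WT replicates 1 to 3 or young WT replicates 1 to 3, and Rpl10a without old WT replicate 1 or young WT replicate 2 or 3. Fold changes between the ages had a length trend of their own, with a Spearman's rho of -0.244 over genes that are not members. Across the 82 members rho was -0.0642. The other genes had a median of -0.58 in their longest class, which holds no member. In the shortest class, which holds 62 members, the other genes had a median of 0.20 with 43.6% called higher. The members of that class had a median of 0.54 with 64.5% called higher. Summed neutrophil markers were at 34800 to 42700 CPM in young WT and at 85200 to 108000 CPM in old WT libraries. Of the 8, 6 were called higher and 2 lower. Summed monocyte or macrophage markers were higher in old WT, at 1490 to 1630 against 1310 to 1430 CPM. Stem and progenitor markers were lower, at 63.7 to 68.2 against 172 to 205 CPM, and so were B lineage markers, at 37.7 to 55.5 against 94.6 to 212 CPM. The part of these markers in the difference was not tested. Age and any other difference between the 2 sets of libraries cannot be told apart.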

How the data were processed

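RNA libraries of 19 mouse marrow samples were made with a directional kit from 200 ng of total RNA, per the labels' protocols; the step against ribosomal RNA is not given in the sources used here. STAR, HTSeq, DESeq2 and mm10 are named in the submitters' processing notes, with no version. The authors deposited raw whole-number counts per gene and library, listing 15703, 15070 and 15793 genes in the young, old and LK sets, with a sum of at least 10 counts over a set. Depth was 26251822 to 68260809 gene counts per library. TE counts were not used.

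Counts were tested with edgeR 4.0.16 (quasi-likelihood, filterByExpr, TMM factors, robust dispersion; R 4.3.3), each of 6 comparisons on its own libraries, with Benjamini-Hochberg adjustment over all genes tested and calls at 0.05. The SE is the log2 fold change divided by the square root of F. Alternatives used DESeq2 1.42.0, voom (limma 3.58.1), other factors, filters and designs, libraries left out, and library-wise offsets for the trend of counts with transcript length, fitted with mgcv 1.9.3 to genes that are not members. Transcript lengths came from GENCODE M21 (coding transcript of the best APPRIS rank, the shortest of ties), found for 16112 of 16842 genes and all 82 members. Promoters came from RefSeq (GRCm38.p6). Tables and figures were made with Python 3.11.15, pandas 2.3.3, numpy 2.4.6 and matplotlib 3.10.9.

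In simulated LK counts with changes of 0.5 on the log2 scale, 97% of changed genes were recovered. With a simulated length trend 11.6% of unchanged genes were called, and 0.0724% with the trend removed. Every MT library was given the same trend and no WT library was set apart, unlike in the data. Spearman's rho with length was -0.666 in the simulation and -0.466 over all genes in the data. The highest member was at 0.47 in LK cells, and recovery of changes that small or smaller was not tested.

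The rule names anchor members by role, paralogs, the shortest and longest member, the sorting markers, up to 5 called members per direction and comparison with the largest change and at least 50 counts, and up to 4 called genes per pathway list and genotype comparison. Members and lists were chosen with earlier results of these data known. Replicate numbers were not used as a block. Some single results are not reported here.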

Additional observations from a re-analysis of the deposited data

Results flagged for a closer look

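The difference of the genotype effects between LK and old Cd11b cells, tested as an interaction in edgeR, passed the adjusted threshold in 25 of 82 members. Of all genes 8.79% passed with a larger change in LK cells and 12% in the other direction. In each of the 25 members the log2 fold change of MT against WT was larger in LK cells. Beside Rpl35 (0.93), Rps27a (0.65), Rpl31 (0.54), Rplp2 (0.47) and Rpl23 (0.43), the small subunit members named here were Rps14 (0.43), Rps18 (0.43), Rps9 (0.40), Rps15 (0.39), Rps21 (0.38), Rps26 (0.36), Rpsa (0.33), Rps23 (0.32), Rps16 (0.32), Rps20 (0.31) and Rps19 (0.29). The large subunit members named here were Rplp1 (0.43), Rpl41 (0.38), Rpl32 (0.35), Rpl26 (0.32), Rpl8 (0.29), Rpl7 (0.28), Rpl14 (0.28) and Rpl21 (0.28). With the length trend removed, the interaction passed in Rpl35 and Rps20, against 4.92% of all genes in that direction and 5.81% in the other. The offset of Rps20 was taken from its transcript model of 3706 bases, which has a coding length of 357 bases.

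In the young WT group, the only group of 4 libraries, 17 reported values were checked for a library far from the rest and 0 had one. Among all 82 members 5 had one, where chance gives about 1 in 20.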

How the results depend on the processing

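The LK calls rested on scaling and design. Of 82 members, 13 were called with the length trend removed, 15 with length and GC trends removed, 10 with the coding length trend removed (chosen after seeing the data), 36 with all 19 libraries in 1 fit and 0 with replicates 2 and 3 summed. Leaving out 1 LK library gave 5 to 78, and the median stayed above 0 under all 21 alternatives. In old Cd11b cells the count of 1 became 2 with DESeq2, 30 with voom and 2 with Fau and other related genes added, 0 with replicates 2 and 3 summed and 0 with all libraries in 1 fit. Leaving out 1 old library gave 0 to 14, and leaving out replicate 1 of both groups gave 47. The interaction count of 25 became 13 with library totals alone, 40 with DESeq2, 65 with voom, 2 with the length trend, the length and GC trends or the coding length trend removed, 0 with replicates 2 and 3 summed, 9 with all 19 libraries and 3 to 52 with 1 library left out. The young count was 0 under all 21 alternatives. The causes of these moves were not tested, except that summed libraries leave fewer samples.

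In no set did every pair of same-numbered libraries deviate together: correlations of their deviations between genotypes were 0.35, 0.10 and -0.20 in the young, -0.052, 0.048 and -0.031 in the old and -0.31, -0.095 and -0.088 in the LK set. The libraries of young replicate 1 deviated together. By the rule that every pair must exceed 0.1, replicate numbers were not taken as pairs. This check cannot show whether same-numbered libraries share a batch or another origin, which the labels do not give. With the replicate number as a block, LK, old and interaction calls were 0, also with the length trend removed.

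Single genes changed sign in LK cells. With the length trend removed Rpl11 was at -0.0031, Rpl22 at -0.0046, Rps6 at -0.00097 and Rpl15 at -0.10. With the replicate block and the length trend removed these were -0.0031, -0.0048, -0.0013 and -0.10. With length and GC removed Rpl11 was at -0.0052, Rps19 at -0.0028 and Rpl15 at -0.11, and with coding length removed Rpl15 was at -0.053 and Rps27l at -0.016. Rpl3l was at 0.12 with voom, 0.26 without replicate 1 of both groups, and -0.49 to 0.024 with 1 library left out. Rpl39l was at -0.33 without WT replicate 2, -0.15 without WT replicate 3 and 6.66 without WT replicate 1, a fitted value against 2 libraries at 0 that is no bound. Between old and young WT Cd11b cells, Rps27 was at 0.069 with the length trend, 0.032 with length and GC and 0.029 with the replicate block and the length trend removed. Depth did not limit the abundant members, but Rpl3l and Rpl39l had too few counts to place a change.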
